A study of Homo sapiens with 4 samples.

Results

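The MYC, MAX and MXD network is a set of related transcription factors, and 10 of its genes (MYC, MYCN, MYCL, MAX, MXD1, MXD3, MXD4, MXI1, MNT and MLX) were followed here among the 23459 genes listed in each library. Members were taken by their current NCBI symbols, and each of the 10 had 1 row of counts. The libraries come from hTERT RPE-1, a wild type line of retinal pigment epithelium that was immortalized with the catalytic subunit of telomerase. All cells were serum starved for 48 h in medium with 0.1% FBS and then exposed to 200 μM merbarone, a catalytic inhibitor of type II topoisomerases, for 4 h (2 replicates) or 8 h (2 replicates). RNA-Seq reads from polyadenylated RNA were counted per gene by the authors. Untreated cells were not analysed here, so every comparison is 8 h against 4 h, and time of exposure cannot be told apart from time in low serum.

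Proteins of this network bind DNA as dimers through a basic helix-loop-helix leucine zipper. MYC, MYCN and MYCL activate growth genes when paired with MAX, and MXD proteins, MXI1 and MNT pair with the same MAX to recruit SIN3 corepressors and histone deacetylases. Both kinds of dimer recognize the E-box CACGTG, so activators and repressors compete for a common partner and common sites. MLX is a parallel partner, shared by some MXD proteins, MNT and the glucose-sensing factors MLXIP (MondoA) and MLXIPL (ChREBP). MYC is known as an immediate responder to serum, and MXD genes are known for their expression in cells that leave the cycle.

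Depth was between 8064450 and 10324697 counts per library. The line held markers that the label leads to expect only in part, since MITF (669 to 882 counts), OTX2 (132 to 193), KRT8 and KRT18 were present while RPE65, BEST1, RLBP1, TTR and TYR had at most 7 counts in any library and KRT19, CDH1 and EPCAM at most 1. In both times the leukocyte, endothelial and neural retina markers were at 8 counts or fewer, except for CD68, a lysosomal gene with 575 to 654 counts. Replicates were separate samples and not copies, with a chi-square of 2.67 per degree of freedom between the 4 h replicates and 3.84 between those of 8 h. In such bulk libraries, fewer cells of one kind and less RNA per cell cannot be told apart.

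Between 4 h and 8 h, 3 of the 5 repressors of the network rose and 1 fell. MNT rose 2.96-fold, MXD1 1.53-fold and MXI1 1.48-fold, MXD3 fell to 0.544-fold, and MYC, the member with the highest level, fell to 0.877-fold. Of the 10 members, 8 passed the filter, a CPM (read count scaled to the library total) above 1 in 2 or more libraries, and were tested with edgeR's quasi-likelihood test. At an adjusted p below 0.05, 4 members rose, 2 fell and 2 were not called, so 75% of the tested members were called, where 38.8% of all 12559 tested genes were called in either direction (19.9% higher and 18.8% lower, or 1698 genes higher and 3289 lower with library size alone in place of TMM, against 2500 and 2367). The number of members called ranged from 4 to 6 over the alternatives, with 4 (50%) under DESeq2 and without either 4 h replicate, where MYC and MAX lost their calls. Only MNT was a DEG (differentially expressed gene, with the added threshold of an absolute log2FC above 1), a class that held 5.33% of tested genes (1.45% higher and 3.88% lower). The 2 times did not overlap in 6 of the 8 members, 4 above and 2 below, against 69.7% of all tested genes (34.8% above and 34.9% below), so separation of the libraries was near the background. The median log2FC of the tested members was 0.16, against -0.002 for all tested genes. The members were chosen with earlier results of these data known, so these shares are descriptions alone.

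**Figure D1:**
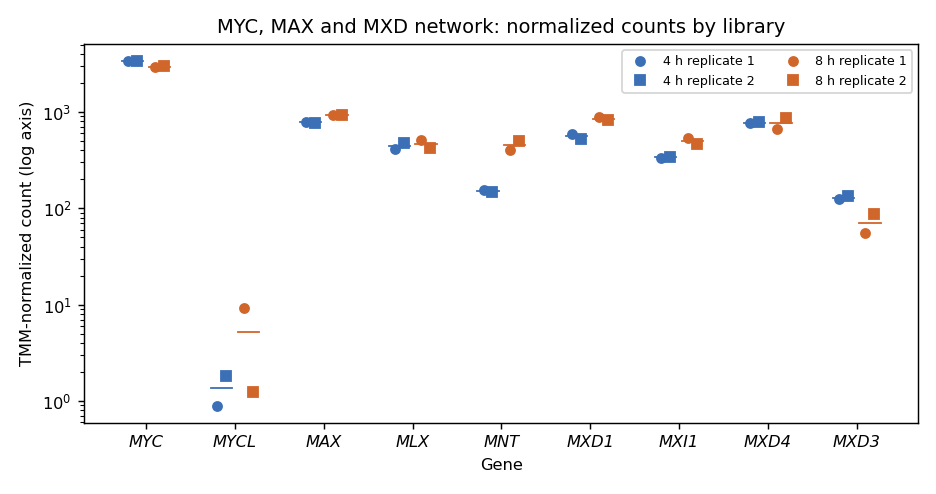
TMM-normalized counts (log axis) of 9 members in each library, with circles for replicate 1, squares for replicate 2 and a short line at the mean of each time (blue 4 h, orange 8 h). Among the tested members MNT shows the widest gap between the times, MYCL, which was not tested, has at most 9.20, and MYC lies above every other member in all 4 libraries.

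The activators were represented by MYC alone. MYC (GRCh37, chromosome 8, 128747680 to 128755197, plus strand) encodes the c-MYC activator. Its TMM-normalized counts, that is counts scaled to a common library size, were 3364 and 3351 at 4 h, against 2904 and 2983 at 8 h. Both 8 h libraries lay below both 4 h libraries, and the replicates of a time differed by far less than the times did. The mean was 3358 ± 9.68 at 4 h and 2943 ± 56.4 at 8 h (SD, n = 2 each), a log2FC of -0.19 (SE 0.07, edgeR adjusted p = 0.0440), which is 0.877-fold with a 95% interval of 0.789 to 0.973. The call was marginal. It was lost with DESeq2 (adjusted p = 0.0972), without a filter on low counts (edgeR adjusted p = 0.0578) and when 4 h replicate 1, 4 h replicate 2 or 8 h replicate 1 was left out (edgeR adjusted p = 0.180, 0.187 and 0.0887), while the log2FC stayed between -0.33 and -0.17 over all 12 alternatives.

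MYCN (chromosome 2, 16080672 to 16087129, plus strand), the neural paralog, had 0 counts in all 4 libraries, which allows up to 3 counts in each. MYCL (chromosome 1, 40361100 to 40367928, minus strand), a paralog first found in lung cancer, had 1 and 2 counts in the 4 h libraries, and 9 and 1 in those of 8 h. The value of 9 came from a single library, and neither gene passed the CPM filter, so no change was tested for them.

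MAX and MLX are the obligate partners. MAX (chromosome 14, 65472892 to 65569413, minus strand) is needed by every MYC dimer. Its normalized counts were 788 and 776 at 4 h, against 930 and 927 at 8 h. The 8 h libraries were both higher, with a log2FC of 0.25 (SE 0.09, edgeR adjusted p = 0.0277), or 1.19-fold with a 95% interval of 1.05 to 1.34. The call was lost with library size alone (log2FC 0.14, edgeR adjusted p = 0.204), after removal of the trend with abundance (log2FC 0.16, edgeR adjusted p = 0.169), with DESeq2 (adjusted p = 0.0976) and without 4 h replicate 1 or 2 (edgeR adjusted p = 0.136 and 0.157). MAX overlaps exons of FNTB and of CHURC1-FNTB, both on the opposite strand. FNTB was at 26.0 and 25.4 normalized counts at 4 h and 7.16 and 11.2 at 8 h (log2FC -1.50, edgeR adjusted p = 0.00780). CHURC1-FNTB was at 26.0 and 38.1 at 4 h and 30.7 and 22.4 at 8 h (log2FC -0.25, edgeR adjusted p = 0.567). Both were counted far below MAX, and their part in the MAX counts was not tested.

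MLX (chromosome 17, 40719090 to 40725257, plus strand) had normalized counts of 417 and 479 at 4 h, against 508 and 427 at 8 h. The times overlapped, and the log2FC was 0.07 (SE 0.11, edgeR adjusted p = 0.669), with a 95% interval of 0.889 to 1.24 for the fold. A change of MLX within this interval could not be told apart from no change. MLX shares exonic bases with PSMC3IP on the opposite strand, which fell from 382 and 407 to 253 and 209 normalized counts (log2FC -0.77, edgeR adjusted p = 8.68e-05). Its part in the MLX counts was not tested.

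MNT (chromosome 17, 2287367 to 2304398, minus strand) encodes the most widely expressed MAX-binding repressor, known to be present in cycling and in resting cells. Its normalized counts were 155 and 148 at 4 h, against 401 and 498 at 8 h. Every 8 h library was above every 4 h library by more than the spread of either time. The mean went from 152 ± 5.29 to 450 ± 68.8 (SD, n = 2 each), with a log2FC of 1.56 (SE 0.14, edgeR adjusted p = 5.06e-08). This is 2.96-fold with a 95% interval of 2.43 to 3.60, and only 0.263% of tested genes had a larger log2FC. MNT was called in all 12 alternatives, with a log2FC from 1.40 to 1.72. An unnamed lncRNA (ENSG00000262456) lies on the opposite strand across exons of MNT, and since the use of strand in counting was not stated, reads from it cannot be told apart from those of MNT. The same holds for MYC, MYCL, MAX and MXI1, which also have lncRNA genes on the opposite strand across their exons. MYCN overlaps such a gene as well (MYCNOS), and both had 0 counts in every library.

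MXD1 (chromosome 2, 70124820 to 70170077, plus strand), the founding MXD repressor, known to be induced as cells differentiate, rose next. Its normalized counts were 597 and 523 at 4 h, against 879 and 830 at 8 h. All 8 h values were higher, with a log2FC of 0.61 (SE 0.10, edgeR adjusted p = 5.71e-05), or 1.53-fold (95% interval 1.33 to 1.75). SNRNP27, a splicing factor gene on the same strand that overlaps exons of MXD1, moved the same way, from 271 and 214 to 354 and 344 normalized counts (log2FC 0.53, edgeR adjusted p = 0.00345), and its part in the MXD1 counts was not tested.

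MXI1 (chromosome 10, 111967363 to 112047123, plus strand), a repressor of the same family, had normalized counts of 336 and 339 at 4 h, against 536 and 460 at 8 h. The 4 h replicates were almost equal and both lay below the 8 h replicates. Its log2FC was 0.56 (SE 0.11, edgeR adjusted p = 0.000508), or 1.48-fold (95% interval 1.26 to 1.74). MXD1 and MXI1 were called in all 12 alternatives.

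MXD3 (chromosome 5, 176728462 to 176739758, minus strand) is the family member known for expression in S phase, and it was the only repressor of the network that fell. Its normalized counts were 125 and 133 at 4 h, against 55.2 and 87.0 at 8 h. The 8 h replicates differed from each other more than those of 4 h did, and both were lower than 4 h. The log2FC was -0.88 (SE 0.21, edgeR adjusted p = 0.00278), or 0.544-fold with a wide 95% interval of 0.400 to 0.740. Without 8 h replicate 2 the log2FC was -1.22, past the DEG threshold, and without 8 h replicate 1 it was -0.57 (edgeR adjusted p = 0.0438). RAB24, on the same strand, and PRELID1, on the opposite strand, share exonic bases with MXD3. They were at 279 to 362 and 412 to 476 normalized counts, above MXD3 in every library. Neither was called (edgeR adjusted p = 0.0843 and 0.398), and their part in the MXD3 counts was not tested.

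MXD4 (chromosome 4, 2249159 to 2263836, minus strand) had normalized counts of 760 and 781 at 4 h, against 659 and 873 at 8 h. The 8 h replicates lay on either side of both 4 h libraries, and the log2FC was -0.01 (SE 0.11, edgeR adjusted p = 0.930), with a 95% interval of 0.845 to 1.16 for the fold. Changes of the size seen in MNT, MXD1 and MXI1 lie outside that interval.

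**Figure D2:**
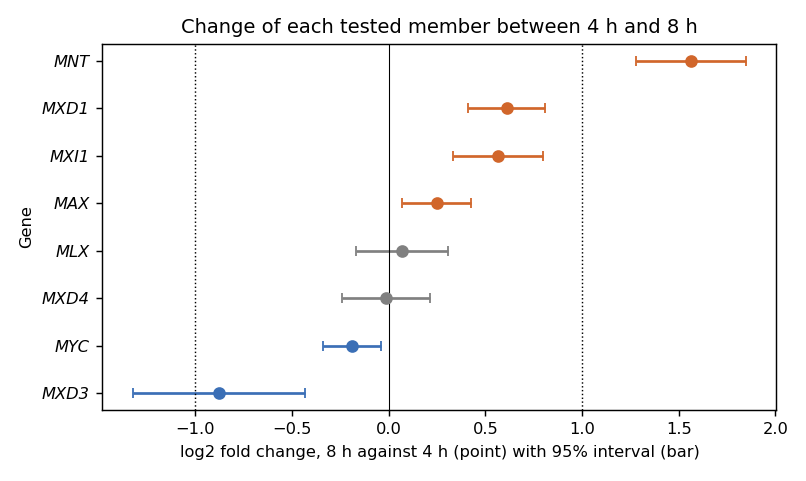
log2FC of the 8 tested members, 8 h against 4 h (points), with 95% intervals (bars). Orange marks a rise and blue a fall at an adjusted p below 0.05, grey marks no call, and dotted lines mark the DEG threshold, which the MNT estimate (1.56) alone passes.

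Levels of different genes were compared as CPM with TMM scaling per kilobase of exon, a length-scaled level. Reads across splice junctions were lost in mapping, to an extent not measured for each gene, so such comparisons between genes are approximate. At 4 h, MYC was highest, at 57.3 ± 0.17 (SD, n = 2), followed by MAX at 13.0, MXD4 at 11.7, MLX at 10.98, MXD1 at 9.20, MXI1 at 5.96, MXD3 at 2.84 and MNT at 1.82. MXD4 and MLX overlapped in their libraries, and the other neighbours in this order did not. At 8 h the order was MYC (50.3), MAX (15.5), MXD1 (14.03), MXD4 (11.6), MLX (11.5), MXI1 (8.79), MNT (5.39) and MXD3 (1.56). MXD4 and MLX again overlapped. MXD1 thus passed MLX and MXD4, and MNT passed MXD3. With the length of the longest transcript in place of all exons, MXD1 stayed below MLX and MXD4 in its mean at 8 h but overlapped MXD4 (16.4 and 15.5 against 16.2 and 21.6), while MNT still passed MXD3. MYC had a higher length-scaled level than 94.4% of tested genes with a known length, MNT than 38.9%.

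The balance of activator and repressor transcripts was described per library, without a test. The limit on comparing levels of different genes holds for these ratios too. The summed length-scaled level of MXD1, MXD3, MXD4, MXI1 and MNT was 31.9 and 31.1 at 4 h, against 39.9 and 42.9 at 8 h. MYC stood at 1.80 and 1.84 times this sum at 4 h and at 1.24 and 1.19 times at 8 h. Both 8 h ratios were lower, from a fall of MYC together with a rise of the sum. MNT made up 5.84% and 5.69% of the sum at 4 h and 12.04% and 13.93% at 8 h. The ratio of MYC to MNT went from 30.9 and 32.3 to 10.3 and 8.53. With the longest transcript as the length, MYC stood at 1.92 and 1.94 times the sum at 4 h and at 1.36 and 1.28 times at 8 h. These are transcript levels and say nothing of the proteins, of which MYC is known for a short life.

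**Figure D3:**
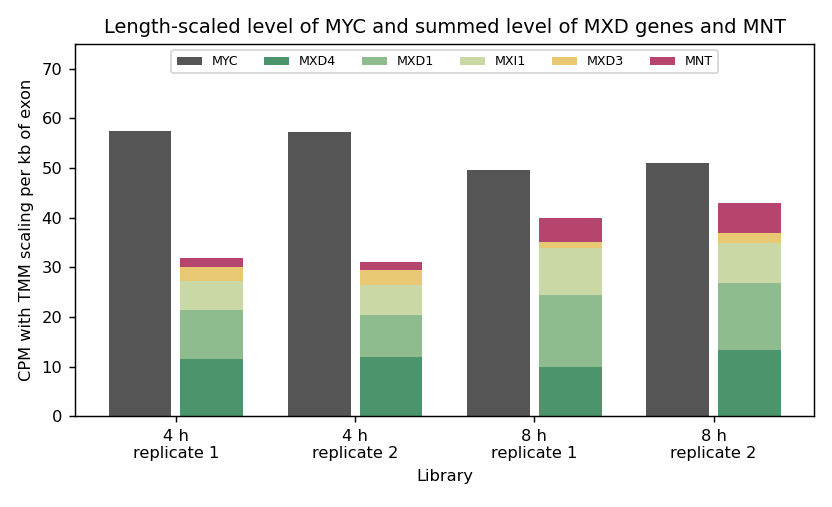
Length-scaled level (CPM with TMM scaling per kilobase) of MYC (grey bars) beside the stacked levels of the repressors MXD4, MXD1, MXI1, MXD3 and MNT in each library. The grey bar shrinks and the stack grows from 4 h to 8 h, where the MNT segment reaches 12.04% and 13.93% of the stack.

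The E-box CACGTG was looked for in the promoter windows of the members, since it is the sequence that MYC-MAX and MXD-MAX dimers share. RefSeq windows on GRCh38.p14 (250 bases before to 50 after the gene start) were matched by gene for 9 of the 10 members. MNT, MXD4 and MLX had 1 CACGTG each, and MYCN, MYCL, MAX, MXD1, MXD3 and MXI1 had none in their windows. CACGTG is its own reverse complement, so a match counts for both strands, and 7.26% of the 35116 windows in the table held one. The 250 bases before the start are printed 5′ to 3′ on the strand of the gene for the member that rose most (MNT), for the 2 other members with the motif, which were not called (MXD4 and MLX), and for the next largest rise, which has no match (MXD1). Capitals mark CACGTG.
MNT (chr17:2401061-2401310, minus strand): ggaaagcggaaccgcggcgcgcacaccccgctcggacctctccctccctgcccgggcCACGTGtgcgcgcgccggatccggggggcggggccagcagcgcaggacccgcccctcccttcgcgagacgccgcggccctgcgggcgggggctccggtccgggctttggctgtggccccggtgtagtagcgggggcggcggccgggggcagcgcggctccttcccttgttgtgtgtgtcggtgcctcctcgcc
MXD4 (chr4:2262110-2262359, minus strand): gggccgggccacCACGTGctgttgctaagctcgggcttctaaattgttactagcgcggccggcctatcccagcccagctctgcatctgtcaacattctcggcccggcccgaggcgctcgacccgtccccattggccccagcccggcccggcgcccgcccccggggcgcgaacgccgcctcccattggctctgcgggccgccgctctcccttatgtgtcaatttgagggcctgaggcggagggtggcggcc
MLX (chr17:42566850-42567099, plus strand): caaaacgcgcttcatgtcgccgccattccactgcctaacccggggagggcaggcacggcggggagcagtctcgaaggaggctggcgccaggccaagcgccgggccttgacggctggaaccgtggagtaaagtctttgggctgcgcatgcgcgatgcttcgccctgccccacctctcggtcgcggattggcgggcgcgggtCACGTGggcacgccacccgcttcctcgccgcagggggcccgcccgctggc
MXD1 (chr2:69914859-69915108, plus strand): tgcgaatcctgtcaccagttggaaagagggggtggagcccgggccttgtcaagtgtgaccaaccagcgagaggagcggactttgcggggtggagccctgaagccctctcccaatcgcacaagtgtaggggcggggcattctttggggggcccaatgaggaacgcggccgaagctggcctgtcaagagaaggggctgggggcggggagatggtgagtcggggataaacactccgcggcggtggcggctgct
The motif began 193 bases before the start in MNT, 238 in MXD4 and 50 in MLX. The match was thus found in a gene that rose and in genes that were not called. Over all tested genes with a window, 1280 of 10183 held CACGTG, of which 23.4% were called higher and 17.3% lower (median log2FC 0.04), against 19.6% and 19.6% of the 8903 without it (median log2FC -0.01).

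The genes that bind, modify or answer to the network were followed in 7 lists with 106 genes, of which 98 were tested. Among these, 31 rose and 25 fell, so 57.1% were called, with a median log2FC of 0.08. Each list stands against the same background, in which 38.8% of all tested genes were called (19.9% higher and 18.8% lower). The lists were chosen with earlier results of these data known, so an excess over this background is a description alone. With library size alone in place of TMM, which shifts the median log2FC of all genes to -0.108, 20 list genes rose and 31 fell, and the share of calls that were higher went from 51.4% to 34.0% over all tested genes. On that scale the cofactors had 4 genes higher and 7 lower, protein turnover 5 and 6, ribosome biogenesis 4 and 6, growth and metabolism 4 and 6, MYC-repressed genes 3 and 3, and MLX targets 0 and 3. Among the members, MAX alone lost its call with it. The counts that follow use TMM.

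Neither tested gene of the 3 further partners was called. MGA, a MAX partner, had normalized counts of 118 and 143 at 4 h, against 162 and 174 at 8 h (log2FC 0.36, edgeR adjusted p = 0.0940, or 0.0349 after removal of the trend with abundance). MLXIP, the MLX partner, was at 453 and 494, then 467 and 514 (log2FC 0.05, edgeR adjusted p = 0.738). MLXIPL failed the filter.

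Of 19 cofactors of MYC and MXD proteins, 5 rose, 5 fell and 9 were not called (52.6% called, against 38.8% of all tested genes). Among those that rose, ZBTB17, which encodes the MYC-binding factor MIZ1, had a log2FC of 0.52 (edgeR adjusted p = 0.00287, or 0.0558 without 4 h replicate 2). WDR5, a chromatin docking protein for MYC, fell from 548 and 571 to 393 and 364 normalized counts (log2FC -0.56, edgeR adjusted p = 0.000278). SAP30, a subunit of the SIN3 corepressor, fell as well (log2FC -0.45, edgeR adjusted p = 0.0141), a call that was lost with DESeq2 (adjusted p = 0.0697) and without 4 h replicate 2 (edgeR adjusted p = 0.234).

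Of 20 genes of MYC protein turnover, 9 rose, 5 fell and 6 were not called (70.0% called, against 38.8% of all tested genes), with a median log2FC of 0.18. USP36, a nucleolar deubiquitinase that stabilizes MYC, rose from 642 and 644 to 1212 and 1199 normalized counts (log2FC 0.91, edgeR adjusted p = 1.33e-07). FBXL14, an F-box protein of the same list, rose from 76.3 and 78.9 to 113 and 166 (log2FC 0.83, edgeR adjusted p = 0.00331), a call that was lost without 8 h replicate 2 (edgeR adjusted p = 0.0558). PLK1 and AURKA, mitotic kinases that are known to stabilize MYC proteins, were the 2 DEGs of the list. PLK1 fell from 690 and 771 to 240 and 232 (log2FC -1.63, edgeR adjusted p = 2.38e-09), and AURKA from 334 and 360 to 110 and 118 (log2FC -1.60, edgeR adjusted p = 6.15e-08).

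Targets that MYC is known to induce did not move one way. Of 18 ribosome biogenesis targets, 6 rose, 5 fell and 7 were not called (61.1% called, against 38.8% of all tested genes). Their median log2FC was 0.15. WDR43, a factor of the small subunit processome, rose from 413 and 341 to 778 and 795 normalized counts (log2FC 1.06, edgeR adjusted p = 2.60e-07), and POLR1B, a subunit of RNA polymerase I, had a log2FC of 0.57 (edgeR adjusted p = 0.00155). NOP56 and NOP58, partner proteins of box C/D snoRNPs, fell, with log2FC of -0.74 and -0.48 (edgeR adjusted p = 6.03e-06 and 0.00146). Both members of this pair thus moved against WDR43 within the same list.

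Of 25 tested growth and metabolism targets, 7 rose, 4 fell and 14 were not called, with a median log2FC of 0.06. The share called, 44%, was near the 38.8% of all tested genes. HK2, the hexokinase of the first step of glycolysis, rose from 413 and 353 to 1026 and 972 normalized counts (log2FC 1.38, edgeR adjusted p = 4.86e-09). ODC1, the first enzyme of polyamine synthesis and a classical MYC target, rose from 4945 and 4748 to 7264 and 6876 (log2FC 0.55, edgeR adjusted p = 6.63e-06). SHMT1, the cytosolic serine hydroxymethyltransferase, fell from 323 and 317 to 110 and 107 (log2FC -1.56, edgeR adjusted p = 1.05e-07). MAT2A, which makes S-adenosylmethionine, fell from 2209 and 2342 to 1256 and 952 (log2FC -1.04, edgeR adjusted p = 1.99e-07).

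Of 14 genes known to be repressed by MYC, 9 were tested, 4 rose and 3 fell (77.8% called, against 38.8% of all tested genes). Their median log2FC was 0.25. CDKN1A, the CDK inhibitor p21, rose from 36830 and 34018 to 61310 and 63568 normalized counts (log2FC 0.82, edgeR adjusted p = 1.21e-08), and NDRG1 had a log2FC of 0.77 (edgeR adjusted p = 1.20e-06). CDKN2B, the CDK inhibitor p15, and THBS1, which encodes thrombospondin, fell, with log2FC of -0.78 and -0.68 (edgeR adjusted p = 6.87e-07 and 2.90e-06). CDKN1A is also a known target of p53.

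Of 6 targets of MLX dimers, 5 were tested and 3 fell, with none higher, where 18.8% of all tested genes were called lower and 19.9% higher. TXNIP, the thioredoxin-binding protein that reports MLXIP activity, went from 1371 and 1638 to 1280 and 1172 normalized counts (log2FC -0.29, edgeR adjusted p = 0.0160), a call lost with DESeq2 (adjusted p = 0.0506) and without 4 h replicate 2 (edgeR adjusted p = 0.326). KLF10 had a log2FC of -0.47 (edgeR adjusted p = 0.000838) and ACACA, which makes malonyl-CoA, of -0.25 (edgeR adjusted p = 0.0133). ARRDC4, a paralog of the TXNIP family, was at 48.5 and 49.9, then 54.2 and 34.8 (log2FC -0.12, edgeR adjusted p = 0.745), FASN had a log2FC of -0.01 (edgeR adjusted p = 0.963), and PKLR failed the filter. ACACA was not called without 4 h replicate 1 or 2 (edgeR adjusted p = 0.108 and 0.0711). Without 4 h replicate 2, 1 of these 5 genes was called.

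**Figure D4:**
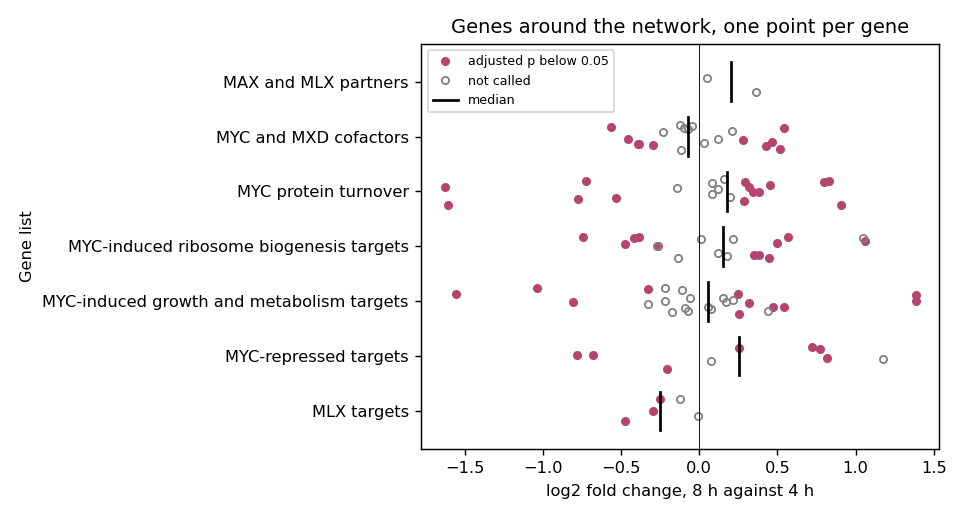
log2FC, 8 h against 4 h, of the tested genes of the 7 lists, with filled points for an adjusted p below 0.05, open points for no call and a bar at the median of each list. Called genes lie on both sides of 0 in the cofactor, turnover, induced and repressed lists.

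Several of the named list genes hold the E-box too, and their sites (RefSeq, GRCh38.p14) are printed with 10 bases on either side, 5′ to 3′ on the strand of the gene, with CACGTG in capitals (first match where a window had 2).
HK2 (chr2:74834966-74834991, plus strand): ttgctgcgccCACGTGggagggagcc
ODC1 (chr2:10448026-10448051, minus strand): gggccccgggCACGTGtgcggcgcgc
WDR43 (chr2:28894660-28894685, plus strand): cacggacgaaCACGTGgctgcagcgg
USP36 (chr17:78840826-78840851, minus strand): gtcgcggtgaCACGTGtgtgaggcgc
WDR5 (chr9:134136275-134136300, plus strand): ccggccgccgCACGTGttccccgccg
PLK1 (chr16:23678681-23678706, plus strand): caggctatccCACGTGttcgggcgtc
ARRDC4 (chr15:97960483-97960508, plus strand): acggcctgtgCACGTGcacgccggag
The first 4 genes rose, WDR5 and PLK1 fell, and ARRDC4 was not called. All but ARRDC4 were named because they were called, so these directions say nothing of the motif. By list, CACGTG was found in 11 of the 21 tested growth and metabolism targets with a window (52.4%) and in 6 of 14 ribosome biogenesis targets (42.9%), in 4 of 16 turnover genes (25%), 3 of 14 cofactors (21.4%), 1 of 3 MLX targets, 0 of 5 MYC-repressed genes and 0 of 2 partners, against 12.6% of all tested genes with a window. In all 6 of those ribosome biogenesis genes (FBL, GNL3, MRTO4, WDR43, PES1 and RRP9) the motif began within 20 bases of the start, which was so in 1 of the 11 growth and metabolism targets with the motif and in 15.8% of all windows that hold it. This position was looked at after the matches were seen. Of these 6, 3 were called higher and 1 lower, where 23.4% of all tested genes with the motif were called higher and 17.3% lower. This count is a description alone.

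Finally, the genes closest in pattern were found for MYC and for MNT, the called member with the largest absolute log2FC. The measure was the distance of log2 normalized counts, centred on each gene's mean, over the 4 libraries. It was taken over 9371 genes whose normalized counts averaged 100 or more. For MYC the nearest genes included ECPAS and CRNKL1, at distances of 0.00844 and 0.0125. For MNT they were ZNF516, GDF15 and SIK1, at distances of 0.169, 0.245 and 0.245. These are larger than those of MYC, which changed less and had higher counts, and the reason was not tested. GDF15, a stress-induced cytokine gene, went from 144 and 120 to 325 and 365. With 4 libraries, such likeness is a description of the libraries alone.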

How the data were processed

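RNA-Seq counts of 4 libraries, 2 at 4 h and 2 at 8 h, were grouped by their sample titles. Per the methods and the submitters' processing notes, the authors filtered reads by quality (FASTQC), aligned them to hg19 (Bowtie 1.2.0) and discarded reads with more than a single position. They deposited raw counts per gene, not normalized, with NCBI Gene identifiers. The counting tool and annotation are not given in the sources used here. Reads across splice junctions and in near-identical copies are lost by such mapping.

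Symbols came from the RefSeq table of GRCh38.p14, positions and exon lengths from GENCODE on GRCh37, the assembly of hg19. The filter, a CPM over 1 in 2 or more libraries, kept 12559 of 23459 genes, which were scaled by TMM and tested with the quasi-likelihood test of edgeR 4.0.16 (R 4.3.3), with time as the only term and Benjamini-Hochberg adjustment over all of them. Normalized counts were scaled to the mean effective library size of 9586677. The SE is the log2FC divided by the square root of F. The study's Limma-Voom (limma 3.58.1) and DESeq2 1.42.0 were alternatives, among 12. Tests were checked on simulated data. Precision rests on depth (8064450 to 10324697 counts) and on the spread shared across genes (biological coefficient of variation 6.52%). The smallest p of a permutation test is 0.333 for groups of 2 and 2.

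The members and lists were chosen with earlier results of these data known. Named genes were all members, all genes of lists of up to 6, and from each other list the 2 largest rises and 2 largest falls with an adjusted p below 0.05 and normalized counts that averaged 100 or more in the higher group. Pattern neighbours, the 3 nearest genes, were taken for MYC and for the called member with the largest absolute log2FC. EIF4A1, of the growth list, was not analysed here, and some genes that these rules name are not reported here.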

Additional observations from a re-analysis of the deposited data

How the results depend on the processing

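The fit of 8 h against 4 h was repeated under 12 alternatives. MNT, MXD1, MXI1 and MXD3 kept their direction and call in all 12. The number of members called lower went from 2 to 1 with DESeq2 and without a filter on low counts, and ranged from 1 to 2 when 1 library was left out, where MYC lost its call. The number of DEGs among members ranged from 1 to 2 when 1 library was left out (2 without 8 h replicate 2, with MXD3). Leaving out a library leaves 1 library at a time, which edgeR takes to vary like the others. The number of genes called then ranged from 3114 to 4828, and that of list genes from 37 to 58, lowest without 4 h replicate 2. With the longest transcript as length, 3 positions in the order of levels changed.

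Values without a call changed sign under some settings. With 1 library left out, the log2FC of MXD4 ranged from -0.227 to 0.18 (0.008 without 4 h replicate 2). That of MLX was -0.038 with library size alone and ranged from -0.068 to 0.182 (-0.037 without 4 h replicate 1). That of MLXIP was -0.057 with library size alone and ranged from -0.019 to 0.119. ARRDC4 turned to 0.06 after removal of the abundance trend and ranged from -0.497 to 0.141, and FASN from -0.176 to 0.148 (0.014 without 4 h replicate 1). The causes were not tested.

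With the replicate number as a block, 5493 genes were called, against 4867, with the same 6 members called. The deviations of same-numbered libraries had a correlation of 0.043 over genes. With 2 libraries per time, this value cannot show whether same-numbered libraries shared a culture or a batch.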
